A study of Mus musculus with 12 samples.

Results

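Host genes of small nucleolar RNAs (snoRNAs) that are named as noncoding hosts were followed in mouse embryonic stem cells (ESCs); 1 of them, Snhg11, has a protein-coding biotype in the annotation used. The genes were chosen by name, as Gas5, Snhg1, Snhg3, Snhg5, Snhg6, Snhg7, Snhg8, Snhg11 and Snhg12, and were found by matching the gene identifiers of the count table to GENCODE mouse symbols. Of these 9 genes, 8 had a row among the 51467 gene rows of the table, and Snhg7 was not analysed here. All 8 passed the filter on low counts and are among the 14033 genes tested. The wild-type ESCs were compared with Dgcr8 KO ESCs, a previously made knockout line that lacks the DGCR8 protein needed to cut primary microRNA transcripts. Both genotypes were kept in Knockout DMEM with fetal bovine serum, LIF and the 2 inhibitors PD0325901 and CHIR99021 (2i), and all cells received 500 uM 4-thiouridine (4sU) for 30 min. RNA that took up 4sU in the pulse was captured and sequenced as nascent RNA (4sU libraries), and RNA depleted of ribosomal RNA from the same labeled samples was sequenced as steady-state RNA (total libraries). Each of the 4 groups of genotype and library type held 3 replicates, and the knockout was represented by 1 line. The labels do not say that replicates were separate cultures, so p-values measure the spread between these samples, which may be technical.

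Many small nucleolar RNAs, though not all, guide chemical modification of ribosomal RNA. Among these guides, box C/D snoRNAs direct methylation of the ribose and box H/ACA snoRNAs direct conversion of uridine to pseudouridine. In mammals most snoRNAs are cut from introns after splicing, so a host gene delivers its snoRNAs whether or not its joined exons last. The spliced RNA of several noncoding hosts, Gas5 among them, is known to be translated over short reading frames and removed by nonsense-mediated decay, and several hosts start with a 5′ terminal oligopyrimidine (TOP) tract like those of ribosomal protein mRNAs. The total to 4sU ratio is the measure of RNA stability in this design, because an RNA that is made fast and lost fast is rich in the 4sU library and poor in the total library.

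The starts of the hosts are shown because the TOP tract is the sequence feature these genes are best known to share. Each window runs from 20 bases before to 40 bases after the start that RefSeq annotates (GRCm38.p6), 5′ to 3′ on the gene's strand. Capitals mark a run of at least 5 C or T on that strand, read from a C at the start or 1 base to either side of it. RefSeq starts were matched for 7 of the 8 genes. Snhg6 was not matched.
Gas5, chr1:161034581-161034640, plus strand: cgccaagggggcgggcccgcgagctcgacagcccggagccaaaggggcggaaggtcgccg
Gas5, second start, chr1:161035146-161035205, plus strand: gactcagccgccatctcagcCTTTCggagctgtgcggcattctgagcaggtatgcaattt
Snhg8, chr3:123508297-123508356, minus strand: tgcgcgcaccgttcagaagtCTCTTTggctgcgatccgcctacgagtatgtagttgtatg
Snhg12, chr4:132308658-132308717, plus strand: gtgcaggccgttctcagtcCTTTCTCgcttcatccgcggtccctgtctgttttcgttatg
Snhg1, chr19:8723467-8723526, plus strand: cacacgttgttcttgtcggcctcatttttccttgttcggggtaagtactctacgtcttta
Snhg5, chr9:88522858-88522917, minus strand: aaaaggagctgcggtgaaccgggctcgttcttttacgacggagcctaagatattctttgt
Snhg11, chr2:158375693-158375752, plus strand: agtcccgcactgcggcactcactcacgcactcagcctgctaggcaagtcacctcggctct
Snhg3, chr4:132353647-132353706, minus strand: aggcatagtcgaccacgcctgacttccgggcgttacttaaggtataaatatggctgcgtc

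A tract was found at a RefSeq start of 3 of the 7 genes, Gas5, Snhg8 and Snhg12, and at 6.32% of all 32851 starts of the same table. The first share is per gene, at any of its starts, and the second is per start. A share per gene over the table was not taken. The Gas5 tract lay at the second start, 559 bases downstream of the start in the count table. Snhg1 and Snhg5 had C and T at 86.7% and 66.7% of their first 15 bases without meeting the rule. The RefSeq start of Snhg3 lay 753 bases upstream of the gene as it was counted, so the counts of Snhg3 leave out sequence next to that start. These are matches of letters at annotated starts, which may not be the starts used in ESCs.

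The hosts differed in how much of their span was exon and in how many snoRNA genes they held. A snoRNA gene was taken as held where it lay, on the same strand, within the span of the host as counted. Any between that span and the upstream RefSeq start of Snhg3 would be left out. Gas5 (growth arrest specific 5, ENSMUSG00000053332.13, mm10 chr1:161034607-161038539, plus strand) held 851 exonic bases in 13 exon blocks and 10 annotated snoRNA genes. Snhg1 (ENSMUSG00000108414.1, chr19:8723475-8726443, plus strand) held 865 exonic bases in 10 blocks and 8 snoRNA genes. Snhg12 (ENSMUSG00000086290.8, chr4:132308678-132311024, plus strand) held 5 snoRNA genes, 3 of which overlap its own exons. Snhg5 (ENSMUSG00000097195.9, chr9:88521050-88522929, minus strand) held Snord50a and Snord50b. Snhg3 (ENSMUSG00000085241.7, chr4:132351934-132352933, minus strand), Snhg6 (ENSMUSG00000098234.7, chr1:9941959-9944118, minus strand) and Snhg8 (ENSMUSG00000104960.1, chr3:123507552-123508404, minus strand) held 1 snoRNA gene each, Snora73b, Snord87 and Snora24. Snhg11 (ENSMUSG00000044349.15, chr2:158375638-158386145, plus strand) differed from the others, with 5864 exonic bases, 2 snoRNA genes and a protein-coding biotype in GENCODE M21. Between 13.8% and 27.4% of the exonic bases of Snhg1, Snhg3 and Snhg12 were shared with another gene on the same strand. Reads that fell on such bases were not counted for either gene.

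The 4sU libraries held between 4593914 and 6005526 counts for wild-type cells and between 4775267 and 4998675 for Dgcr8 KO cells. The total libraries were deeper, with 6873708 to 9295245 counts (wild-type) and 7184551 to 9215024 (Dgcr8 KO). Dgcr8 itself fell in total RNA from 102 ± 9.30 to 33.3 ± 1.09 CPM (counts scaled to library size with TMM factors; SD, n = 3). All 8 pluripotency markers listed passed the filter. Of the 6 markers of feeder fibroblasts none passed it, and Postn had no count. Of 5 primitive endoderm and 5 early mesoderm and ectoderm markers, 1 and 3 passed.

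Nascent RNA of the hosts was abundant. In wild-type 4sU libraries Gas5 stood at 1321, 1614 and 1267 CPM in replicates 1 to 3, and Snhg1 at 1021, 1257 and 1022 CPM. Snhg5 stood at 838.5, 1012 and 794.6 CPM in the same libraries. Replicate 2 gave the highest value of the 3 wild-type 4sU libraries for all 8 hosts. Per kilobase of exon, the order of mean 4sU levels was Gas5 (1646 ± 219 CPM per kb), Snhg1 (1272 ± 157), Snhg5 (844 ± 110), Snhg3 (686 ± 71.8), Snhg6 (463 ± 63.9), Snhg8 (416 ± 68.1), Snhg12 (371 ± 30.2) and Snhg11 (5.45 ± 0.378; SD, n = 3 for each). The replicate ranges of neighbours in this order overlapped for Snhg5 and Snhg3, Snhg6 and Snhg8, and Snhg8 and Snhg12. The first 7 of these genes lay between the 98.9th and the 99.8th percentile of all genes tested in this group, and Snhg11 lay at the 37.1st. Among 907 lncRNA genes, which include these 7, Gas5 ranked number 2 and Snhg1 number 3 by 4sU level per kilobase.

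**Figure D1:**
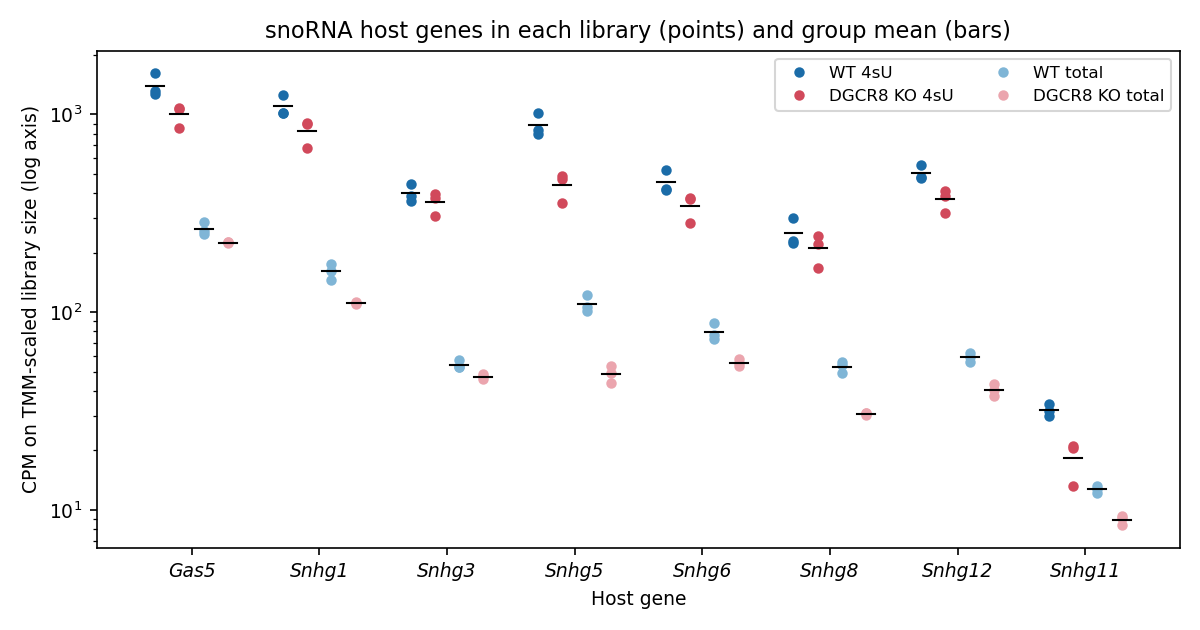
Level of each snoRNA host gene in CPM on a log axis, with 1 point per library, a black bar at the mean of each group of 3, and colors for the 4 groups. For every gene but Snhg11 the 4sU points sit far above the total points, as for Gas5 at 1267 to 1614 CPM in wild-type 4sU and 250 to 287 CPM in wild-type total libraries.

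Steady-state levels were much lower. Gas5 stood at 258, 287 and 249.6 CPM in the wild-type total libraries, Snhg1 at 161, 176 and 146 CPM and Snhg12 at 62.4, 59.3 and 56.0 CPM. For each of these genes the highest total library lay below the lowest 4sU library. Together the 8 hosts took 0.480% to 0.597% of the counts in wild-type 4sU libraries and 0.0695% to 0.0791% in wild-type total libraries. The order of levels per kilobase in total RNA again began with Gas5 (311 ± 23.4 CPM per kb) and Snhg1 (186 ± 17.5) and ended with Snhg12 (43.5 ± 2.36) and Snhg11 (2.17 ± 0.0852). Between them Snhg5, Snhg3, Snhg8 and Snhg6 stood at 105, 93.3, 87.8 and 81.0 CPM per kb, and each of these 4 overlapped its neighbour in the order.

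In Dgcr8 KO cells the order per kilobase in 4sU RNA was Gas5 (1176 ± 146 CPM per kb), Snhg1 (954 ± 152), Snhg3 (621 ± 82.7), Snhg5 (421 ± 68.1), Snhg6 (353 ± 54.9), Snhg8 (348 ± 65.5), Snhg12 (273 ± 36.5) and Snhg11 (3.11 ± 0.747; SD, n = 3 for each). Snhg5 thus stood below Snhg3, and their ranges did not overlap. Per kilobase of exon not shared with another gene, Snhg3 stood above Snhg5 in wild-type 4sU RNA too (945 against 844 CPM per kb). The change of order between genotypes therefore depends on the length used. The ranges of Gas5 and Snhg1 overlapped, as did those of each neighbouring pair from Snhg5 to Snhg12. In total RNA of Dgcr8 KO cells the order was Gas5 (264 ± 2.31 CPM per kb), Snhg1 (129 ± 0.971), Snhg3 (81.4 ± 2.43), Snhg6 (56.8 ± 2.26), Snhg8 (50.8 ± 0.516), Snhg5 (46.8 ± 4.58), Snhg12 (29.7, range 27.7 to 31.7) and Snhg11 (1.52 ± 0.0875). Snhg8 and Snhg5 alone overlapped as neighbours there. The 8 hosts took 0.322% to 0.406% of the counts in Dgcr8 KO 4sU libraries and 0.0543% to 0.0552% in Dgcr8 KO total libraries.

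To ask how stable the host RNAs were, the total to 4sU ratio was taken in each genotype. All 8 hosts had less total than 4sU signal in wild-type cells, and all 8 passed the test at an adjusted p under 0.05 with a log2 ratio below -1, which 25.0% of all genes tested did. Snhg12 had the lowest log2 ratio, -3.09 ± 0.0824 (SE; limma adjusted p = 2.95e-25), a ratio 8.53-fold in favour of 4sU RNA. Snhg5 followed at -3.00 ± 0.0913, Snhg3 at -2.87 ± 0.0865 and Snhg1 at -2.77 ± 0.0865. Snhg6, Gas5 and Snhg8 stood at -2.50 ± 0.0930, -2.39 ± 0.0754 and -2.22 ± 0.106. Snhg11 stood apart from the other 7 at -1.32 ± 0.130 (adjusted p = 7.10e-11). The median log2 ratio was -2.63 over the 8 hosts and 0.08 over all genes tested. Both kinds of library were scaled to their own totals, so a ratio has meaning only relative to other genes.

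The ratio was also taken in single pairs of libraries with the same number. The log2 ratio of Snhg5 was -3.05, -3.05 and -2.90 in wild-type replicates 1 to 3, and that of Snhg8 was -2.21, -2.41 and -2.05 (each from CPM plus 0.5). In Dgcr8 KO, Snhg5 gave -3.25, -3.18 and -3.01. Snhg8 gave -2.96, -2.82 and -2.44, all below its wild-type values. Dgcr8 KO replicate 3 had the highest ratio of its group for 7 of the 8 hosts, with Snhg11 the exception. Snhg11 was the most spread, at -0.47, -1.16 and -1.25 in Dgcr8 KO, and Snhg12 gave -3.43, -3.25 and -2.86.

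Among protein-coding genes such ratios were rare, and among lncRNAs they were ordinary. In wild-type cells 7 hosts lay between the 0.791st percentile (Snhg12) and the 2.88th percentile (Snhg8) of protein-coding genes, and Snhg11 lay above them. Within the other 900 lncRNA genes tested, the same 7 lay between the 29.9th and the 60.3rd percentile, and Snhg11 at the 79.2nd. The median ratio of those lncRNAs, relative to the median of all genes, was -2.67 in wild-type and -2.72 in Dgcr8 KO cells, against 0.23 and 0.22 for protein-coding genes. By this ratio the 7 hosts sat in the middle of the range of lncRNAs, while their 4sU levels per kilobase were near the top of it.

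**Figure D2:**
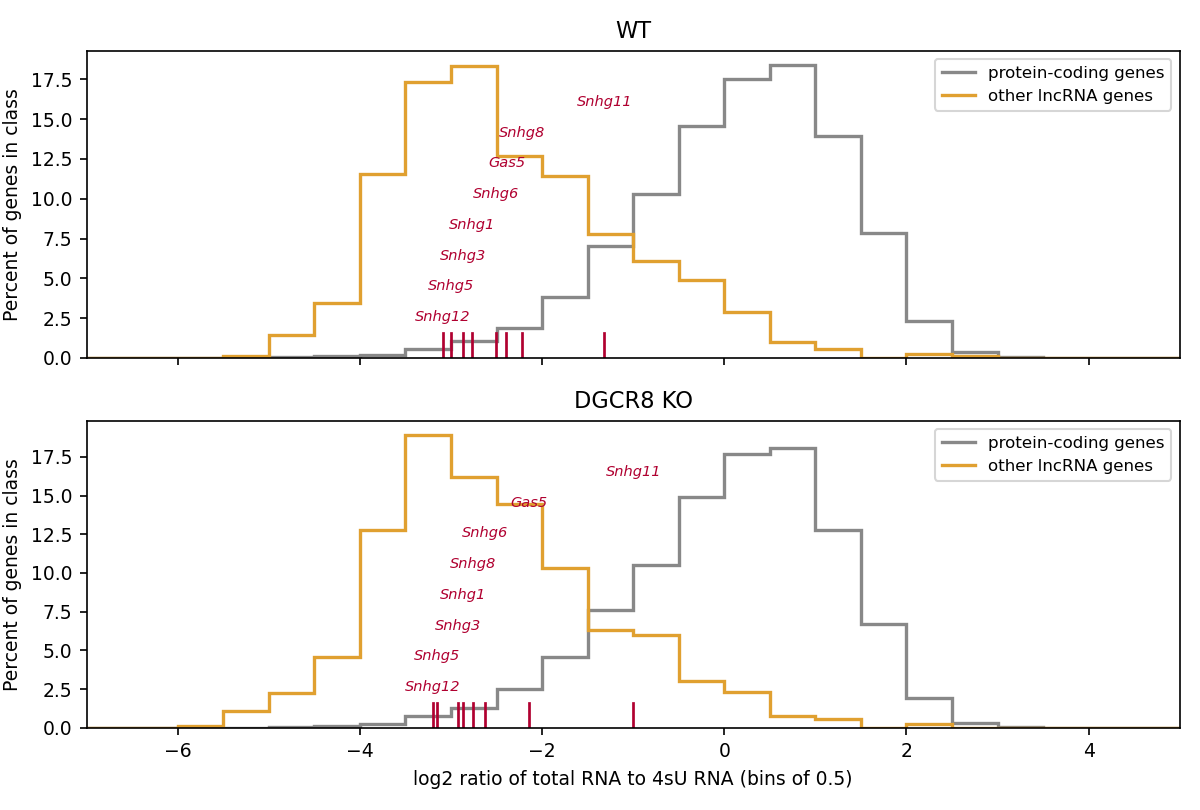
Distribution of the log2 total to 4sU ratio over protein-coding genes (gray) and lncRNA genes other than the hosts (orange), in percent of genes per bin of 0.5, for wild-type (top) and Dgcr8 KO cells (bottom), with a red tick and a name for each host; the few genes beyond the ends of the axis are not drawn. In wild-type cells 7 hosts sit between -3.09 and -2.22, under the bulk of the lncRNA distribution, and Snhg11 sits at -1.32.

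In Dgcr8 KO cells all 8 hosts again had less total than 4sU signal at an adjusted p under 0.05. Of these, 7 were below -1, beside 27.1% of all genes tested, and Snhg11 stood at -0.997 ± 0.161 (adjusted p = 1.25e-06), just inside the limit. Snhg12 was again lowest at -3.20 ± 0.0919, and the median of the 8 was -2.81. Leaving out Dgcr8 KO replicate 1, in which Snhg11 had its highest ratio, put Snhg11 at -1.26.

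To ask whether the loss of DGCR8 changed stability, the change of this ratio was tested as an interaction. None of the 8 hosts changed by more than 1 on the log2 scale. At any size, 1 of the 8 hosts, Snhg8, was lower at an adjusted p under 0.05, beside 11.1% of all genes tested. The ratio of Snhg8 fell by 0.54 ± 0.163 on the log2 scale (limma adjusted p = 0.0214). This call was lost under DESeq2 (adjusted p = 0.227), under RLE and upper-quartile scaling (adjusted p = 0.0766 and 0.0562), without the filter on low counts (adjusted p = 0.191), and without any one of wild-type replicates 1 and 3 or Dgcr8 KO replicates 1 and 2, which gave values from -0.52 to -0.43. RNA of each labeled sample was split between both library types, so libraries of 1 number may share a culture, and with same-numbered libraries as a block Snhg8 stood at -0.55 (adjusted p = 8.79e-05). For Gas5 the change was 0.25 (95% interval by the normal quantile 0.034 to 0.462, adjusted p = 0.127), which passed the test under RLE scaling at 0.34 (adjusted p = 0.0442), with replicate as a block (adjusted p = 0.0197) and with same-numbered libraries as a block at 0.25 (adjusted p = 0.00423), and for Snhg11 it was 0.32 (interval -0.0862 to 0.724). For Snhg1, Snhg3, Snhg5, Snhg6 and Snhg12 it lay between -0.16 and -0.06, with intervals that reached no further than -0.44 and 0.19. The median change was -0.11 over the hosts and -0.09 over all genes tested.

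The levels of the hosts were mostly lower in Dgcr8 KO cells. In total RNA 7 of 8 hosts fell at an adjusted p under 0.05, beside 36.7% of all genes tested, and none rose. The 3 Dgcr8 KO total libraries lay below the 3 wild-type total libraries for all 8 hosts, as they did for 39.6% of all genes. The median change was -0.52 over the hosts and -0.09 over all genes. Snhg5, host of Snord50a and Snord50b, changed most. It stood at 101, 122 and 106 CPM in wild-type and at 49.1, 53.6 and 44.0 CPM in Dgcr8 KO total libraries. The groups did not overlap, and the fall of 1.16 ± 0.119 on the log2 scale (2.24-fold lower, adjusted p = 4.32e-10) was the 1 call beyond the limit of 1, which 7.82% of all genes tested passed in this direction.

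Snhg8, host of Snora24, was next. Its total RNA stood at 49.3, 55.8 and 53.9 CPM in wild-type and at 30.8, 30.9 and 30.3 CPM in Dgcr8 KO libraries, a fall of 0.79 ± 0.135 (adjusted p = 5.72e-06). Snhg12 stood at 62.4, 59.3 and 56.0 CPM in wild-type and at 37.8, 40.5 and 43.2 CPM in Dgcr8 KO total libraries. Snhg1 stood at 161, 176 and 146 CPM and at 112, 112 and 111 CPM. In both genes every Dgcr8 KO library lay below every wild-type library. Snhg12 fell by 0.55 ± 0.104, Snhg1 by 0.52 ± 0.102, Snhg6 by 0.51 ± 0.112 and Snhg11 by 0.50 ± 0.159. Gas5, the most abundant host, fell by 0.23 ± 0.0849 (adjusted p = 0.0171), from 258, 287 and 249.6 to 226, 226 and 223 CPM. That call of Gas5 was lost under DESeq2 (adjusted p = 0.142), with library size only (adjusted p = 0.0591) and without the filter on low counts (adjusted p = 0.352). Snhg3 did not pass the test, at -0.20 ± 0.104 (adjusted p = 0.0896), but passed it under limma-trend (adjusted p = 0.0345) and with replicate as a block (adjusted p = 0.0175).

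Nascent RNA moved the same way. In 4sU libraries 7 of 8 hosts fell at an adjusted p under 0.05, beside 28.0% of all genes tested, with none higher, and the groups did not overlap for 6 hosts, beside 29.4% of all genes. The median change was -0.43 over the hosts and -0.02 over all genes. Snhg5 again changed most, from 838.5, 1012 and 794.6 CPM in wild-type to 473, 489 and 358 CPM in Dgcr8 KO. Its fall of 1.00 ± 0.0805 (adjusted p = 3.47e-12) lay at the limit of 1, which 5.27% of all genes passed in this direction. It slipped under the limit when wild-type replicate 2 (-0.91) or Dgcr8 KO replicate 3 (-0.84) was left out, with adjusted p of 8.79e-11 and 2.46e-11.

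Snhg11 fell by 0.82 ± 0.132 in 4sU RNA, from 31.7, 34.3 and 29.9 to 13.2, 21.0 and 20.6 CPM, with Dgcr8 KO replicate 1 the lowest. Gas5 fell by 0.48 ± 0.0686 (adjusted p = 4.82e-07), from a range of 1267 to 1614 CPM to 1066, 1078 and 857 CPM. Snhg12, Snhg1 and Snhg6 fell by 0.44 ± 0.0668, 0.42 ± 0.0755 and 0.39 ± 0.0806. Snhg8 fell by 0.26 ± 0.0912 (adjusted p = 0.0171), and its values in Dgcr8 KO (244, 221 and 167 CPM) overlapped those in wild-type (230.5, 299 and 225 CPM). Without wild-type replicate 2 or Dgcr8 KO replicate 3, Snhg8 stood at -0.14 (adjusted p = 0.192) and -0.08 (adjusted p = 0.428). It also missed the test under DESeq2 (adjusted p = 0.091) and without the filter on low counts (adjusted p = 0.0803). Snhg3 stood at -0.14 ± 0.0695 (adjusted p = 0.0771), and at -0.013 without Dgcr8 KO replicate 3. It passed the test under DESeq2 (adjusted p = 0.0490), RLE scaling (0.0185) and upper-quartile scaling (0.0195), with replicate as a block (0.0291), and without wild-type replicate 3 (0.0152) or Dgcr8 KO replicate 2 (0.0276), at values from -0.21 to -0.15. Dgcr8 KO 4sU replicate 3 held the lowest value of its group for 7 of 8 hosts. Its part in the other falls was measured by leaving it out, which left Snhg1 at -0.26, Snhg6 at -0.23, Snhg12 at -0.31 and Gas5 at -0.36, all 4 still past the test. Fewer cells that express a gene and less RNA per cell cannot be told apart in bulk samples.

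**Figure D3:**
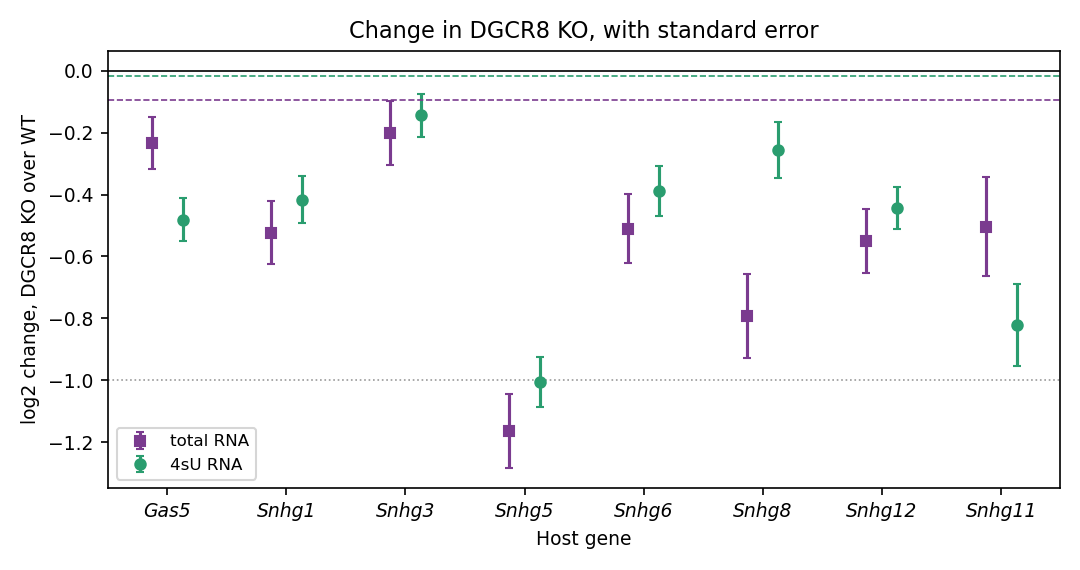
Log2 change of each host in Dgcr8 KO over wild-type cells, in total RNA (squares) and 4sU RNA (circles), with standard errors from limma. Dashed lines mark the median of all genes tested (-0.09 in total and -0.02 in 4sU RNA) and the dotted line the limit of -1, which Snhg5 passes in both.

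The snoRNA genes inside the hosts were read in the same libraries. Of the 30 snoRNA genes annotated within the hosts, 20 passed the filter on low counts and 4 had no count in any library. The 20 comprised 9 in Gas5, 8 in Snhg1 and 1 each in Snhg3, Snhg6 and Snhg8. Of the 4, Snora44 and Snora61 lie wholly in exons of Snhg12. The others are entries of Snora16a and Snord80 that lie inside a second entry of the same snoRNA. Reads on such shared bases were not counted, so the 4 zeros do not show that the RNA was absent. A read on a snoRNA gene may come from the unspliced host RNA or from the snoRNA itself, and these counts do not tell them apart. The methods describe cleanup on RNeasy MinElute columns for captured 4sU RNA and not for total RNA. Whether this changed the recovery of short RNA in 1 library type was not tested. In wild-type cells 18 of the 20 had a log2 total to 4sU ratio below -1 with an adjusted p under 0.05, beside 25.0% of all genes tested, and the median was -2.92. Of the 9 in Gas5, 6 lay below the -2.39 of Gas5 itself, and of the 8 in Snhg1, 5 lay below its -2.77.

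A few snoRNA genes had a far higher total to 4sU ratio. Snora73b, the H/ACA snoRNA of Snhg3 also known as U17b, was the only one of the 20 with more total than 4sU signal in wild-type cells, at 0.95 against -2.87 for its host. Snord22 in Snhg1 stood at -0.58, and Snord47 and Gm22357 in Gas5 at -1.24 and -1.59. These are the 4 sequences, from GENCODE M21 transcripts, with coordinates as in the count table. They are shown because they are the snoRNA genes whose ratio changed in Dgcr8 KO. Capitals mark TGATGA (the core of box C) within the first 20 bases and CTGA (box D) within the last 20, or, for the H/ACA snoRNA, ACA within the last 10.
Snord22, chr19:8725866-8725991, plus strand: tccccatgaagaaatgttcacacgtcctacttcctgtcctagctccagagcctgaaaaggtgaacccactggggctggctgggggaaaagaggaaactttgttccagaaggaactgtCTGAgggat
Snord47, chr1:161038082-161038158, plus strand: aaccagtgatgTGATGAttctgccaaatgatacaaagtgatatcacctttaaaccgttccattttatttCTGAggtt
Gm22357, chr1:161036057-161036139, plus strand: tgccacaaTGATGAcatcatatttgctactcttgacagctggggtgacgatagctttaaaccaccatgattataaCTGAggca
Snora73b, chr4:132352322-132352526, minus strand: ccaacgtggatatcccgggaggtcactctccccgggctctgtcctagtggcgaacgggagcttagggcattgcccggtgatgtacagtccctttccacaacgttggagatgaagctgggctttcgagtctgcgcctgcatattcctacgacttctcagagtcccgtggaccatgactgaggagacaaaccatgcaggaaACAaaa

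Snord47 and Gm22357 held both box letters in those windows, as did 20.5% of the 1507 snoRNA transcripts of the annotation, and Snord22 held CTGA alone. The search read the given strand only. Snord22 and Snora73b have 126 and 205 bases, Snord47 and Gm22357 77 and 83. Snora73b is 96.6% identical to its copy Snora73a, and reads that match both were discarded by unique mapping, so its level is uncertain. Of the 126 bases of Snord22, 59 lie in annotated exons of Snhg1.

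In Dgcr8 KO cells the total to 4sU ratio rose for these 4 of the 20 snoRNA genes at an adjusted p under 0.05, beside 5.02% of all genes tested, and fell for none. Snord22 rose by 0.84 ± 0.177 (limma adjusted p = 8.99e-04), Snord47 by 0.81 ± 0.215 (adjusted p = 0.00796), Gm22357 by 0.60 ± 0.145 (adjusted p = 0.00344) and Snora73b by 0.45 ± 0.0966 (adjusted p = 0.00125). Their hosts stood at 0.25 (Gas5), -0.11 (Snhg1) and -0.06 (Snhg3), and none of these hosts passed this test in the main fit. Gas5 did pass it under RLE scaling, with replicate as a block and with same-numbered libraries as a block, as given above. A difference between a host and its snoRNA gene was not tested. Snord47 missed the test without Dgcr8 KO replicate 3 (0.51, adjusted p = 0.0968), under DESeq2 (adjusted p = 0.1003) and without the filter (adjusted p = 0.0592). The other 3 passed in every alternative run.

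In total RNA Snora73b stood at 405, 366 and 375 CPM in wild-type and 525.5, 557 and 471 CPM in Dgcr8 KO libraries, without overlap, and rose by 0.44 (adjusted p = 1.27e-07). In 4sU RNA it did not differ beyond its spread, at 182, 212 and 199 against 211, 206 and 174 CPM. Snord22 stood at 63.5, 57.4 and 55.2 CPM in wild-type and 95.8, 95.6 and 60.6 CPM in Dgcr8 KO total libraries. The lowest Dgcr8 KO value, replicate 3, fell within the wild-type range, and the rise of 0.51 passed the test (adjusted p = 4.34e-04). In 4sU RNA Snord22 stood at 84.9, 96.2 and 81.3 CPM in wild-type and at 79.8, 75.2 and 54.8 CPM in Dgcr8 KO cells, all below wild-type. It fell by 0.33 ± 0.130 (adjusted p = 0.0284). That call was lost without Dgcr8 KO replicate 3 (-0.15, adjusted p = 0.149) or wild-type replicate 2 (-0.28, adjusted p = 0.116). It was also lost under DESeq2 (adjusted p = 0.107) and without the filter on low counts (adjusted p = 0.138). Gm22357 and Snord47 lie in Gas5. In total RNA Gm22357 stood at 59.6, 73.5 and 52.7 CPM in wild-type and at 66.3, 65.0 and 74.5 CPM in Dgcr8 KO cells, which overlap (0.15, adjusted p = 0.224). In 4sU RNA it stood at 181, 218 and 163 CPM and at 143, 151 and 115 CPM, and fell by 0.45 ± 0.0954. Snord47 likewise did not pass in total RNA (0.16, adjusted p = 0.377) and fell by 0.65 ± 0.147 in 4sU RNA. Of the 20 snoRNA genes, Snora73b and Snord22 were the 2 that rose in total RNA, beside 27.2% of all genes tested, while 8 fell, beside 36.7%. Among the 8, only Snord80 in Gas5 fell beyond the limit of 1 (-2.29 ± 0.684, limma adjusted p = 0.00415), beside 7.82% of all genes. It rests on 10, 4 and 0 counts in Dgcr8 KO total libraries. Reads on bases it shares with the other Snord80 entry were not counted. Its fall was not run under the alternatives. In 4sU RNA 16 of the 20 fell at an adjusted p under 0.05, beside 28.0% of all genes, and none rose. Of these falls 8 were in Gas5 and 6 in Snhg1, and snoRNA genes of 1 host are not independent readings. Within Gas5, 8 of 9 fell, and all 9 lay between -0.65 and -0.36, on either side of the -0.48 of the Gas5 exons.

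**Figure D4:**
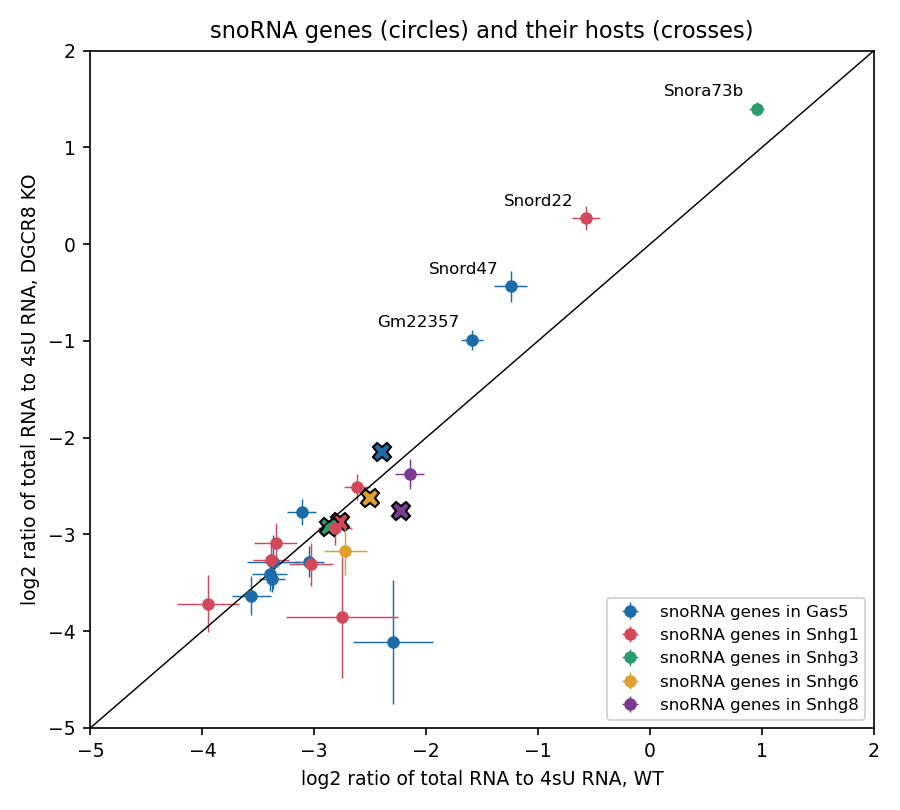
Log2 total to 4sU ratio in wild-type cells (horizontal axis) against Dgcr8 KO cells (vertical axis) for the 20 snoRNA genes that passed the filter (circles, with standard errors) and their 5 hosts (crosses), colored by host. The diagonal marks equal ratios. Snora73b, Snord22, Snord47 and Gm22357 are named and lie above it, while the other 16 lie below -2 on both axes.

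Other genes of the snoRNA pathway were described from fixed lists. Their counts stand beside the shares of all genes tested, which were 25.0% with a wild-type ratio called below -1, 36.7% lower and 27.2% higher in total RNA, and 28.0% lower in 4sU RNA. Of 11 other noncoding hosts, 10 were tested. Their median log2 ratio in wild-type cells was -2.58, and 8 of the 10 were below -1 with an adjusted p under 0.05. Snhg14, the long host transcript of the imprinted Prader-Willi region, was the exception in the other direction at 0.95. In total RNA 4 of the 10 fell at an adjusted p under 0.05, a share near the 36.7% of all genes, Snhg18 beyond the limit of 1 at -1.37 ± 0.329 (adjusted p = 5.40e-04), and in 4sU RNA 6 fell while Snhg20 rose by 0.59. Of 271 protein-coding genes whose span holds an annotated snoRNA gene, 221 were tested. Their median ratio in wild-type cells was 0.41, and 37 were below -1 while 63 were above 1. In total RNA 113 of the 221 fell and 55 rose at an adjusted p under 0.05, with a median of -0.18, beside 36.7% lower and 27.2% higher among all genes. Changes in total RNA ranged from -2.73 (Slit3) to 5.24 (Hs3st4), with Tenm1 at 3.71 and Maged2 at -1.87. Slit3, Hs3st4 and Tenm1 were low, with wild-type total means of 4.22, 0.195 and 0.505 CPM. The ratio of Casp2 rose by 1.48 ± 0.0933, and Lpp rose by 1.56 in 4sU RNA. The ratio of D430041D05Rik fell by 1.34.

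Proteins and assembly factors of snoRNA particles were read in total RNA, where 36.7% of all genes fell and 27.2% rose. Of 12 box C/D proteins and assembly factors, 10 fell at an adjusted p under 0.05 and none rose, with a median of -0.42 and a range of -0.98 to 0.08. Of 6 box H/ACA proteins and assembly factors 4 fell, and Nhp2, a core protein of the H/ACA particle, fell beyond the limit of 1, by 1.22 ± 0.0644 (adjusted p = 5.86e-17). The ratio of Nhp2 fell by 0.86 ± 0.0963 (adjusted p = 8.86e-08). Of 14 factors of nonsense-mediated decay 11 fell and 1 rose in total RNA, with a median of -0.36 and none beyond -0.75. Of 5 mRNAs generally named as substrates of nonsense-mediated decay, Atf4, a transcription factor of the amino acid response, fell in total RNA from a range of 292 to 339 CPM to a range of 132 to 155 CPM (limma adjusted p = 1.46e-12) and its ratio fell by 1.04 ± 0.117. In total RNA 2 of the 5 fell and 2 rose at an adjusted p under 0.05.

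The profile of the hosts over the 12 libraries, as the mean of centred log2 CPM, was shared by many genes. The 5 genes with the highest Pearson r were 1810032O08Rik (matched to Snhg16 by synonym, r = 0.999), Gm24453, a snoRNA gene inside Snhg1 (0.999), Eif5 (0.999), Rpl12 (0.998) and Jrk (0.998), and 1553 of 14025 genes had r over 0.95. These points share libraries and library type, which sets most of the profile. Against the mean of the other hosts, each host gave r between 0.986 and 0.999 except Snhg11 at 0.898. Matches to GCACTT, the complement of the seed core of the microRNAs that are most abundant in ESCs, were searched on the transcript strand and found in annotated transcripts of 2 of the 8 hosts, 2 in Snhg11 and 1 in Snhg12, and in those of 60.1% of the genes tested. These shares were not matched for transcript length. The longest transcript of Snhg11 had 5864 bases, and those of the hosts without a match had at most 2728.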

How the data were processed

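RNA was measured in 12 libraries of mouse ESCs. The deposited values are whole-number read counts per gene. Per the file header and methods, the authors trimmed reads with Cutadapt 1.14, mapped them uniquely with STAR 2.5.3a to mm10 and counted them with featureCounts 1.5.3 (reverse stranded) against GENCODE M14 without rRNA. Reads on 2 overlapping genes are dropped by the default of that counter, and spike-in rows held 1 count in all, so no absolute scale was set. Symbols came from GENCODE M21 (51274 rows matched).

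Genes with at least 3 CPM in at least 3 libraries were kept (14033), scaled by TMM (edgeR 4.0.16) and fitted with voom weights in limma 3.58.1 (R 4.3.3) with 1 coefficient per group, from which the 5 contrasts were taken. Adjusted p is Benjamini-Hochberg over all genes tested. A gene was called where adjusted p was under 0.05 and log2 change exceeded 1 in size. The genes named were all members, Dgcr8, the called genes of each list (at most 4 per contrast) and the 5 genes most like the mean profile. Snord22, Snord47, Gm22357, Snora73b and Snord80, and list genes short of a call, were chosen after their values were seen. The members and lists were chosen with earlier results of these data known. Replicates were not repeats of 1 library (lowest chi-square per degree of freedom 1.58). The fit was tested on simulated data. Alternatives were edgeR quasi-likelihood, DESeq2 1.42.0, limma-trend, other scalings and filters, replicate blocks and leaving out each replicate.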

Additional observations from a re-analysis of the deposited data

Results flagged for a closer look

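Each result here is a genotype effect that differed between total and 4sU libraries, tested as the interaction in limma, with the change of the log2 total to 4sU ratio in Dgcr8 KO and its adjusted p. Among the hosts this held for Snhg8 (-0.54, adjusted p = 0.0214). Among the snoRNA genes inside hosts it held for Snord22 (0.84, adjusted p = 8.99e-04), Snord47 (0.81, adjusted p = 0.00796), Gm22357 (0.60, adjusted p = 0.00344) and Snora73b (0.45, adjusted p = 0.00125). Dgcr8 itself gave -1.09 (adjusted p = 3.11e-08). Of the called list genes named in the report, it held for Nhp2 (-0.86, adjusted p = 8.86e-08), Atf4 (-1.04, adjusted p = 9.98e-08), Casp2 (1.48, adjusted p = 4.69e-13), D430041D05Rik (-1.34, adjusted p = 0.0105), Hs3st4 (2.17, adjusted p = 0.0397) and Slit3 (-1.43, adjusted p = 0.0450). Snhg20, named after its values were seen, gave -0.42 (adjusted p = 0.0286). Groups of 3 were not tested for single outlying samples.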

How the results depend on the processing

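Of 1994 alternative log2 changes of the hosts and other named genes, 1868 kept their direction and whether they were called. A call needs both adjusted p under 0.05 and a log2 change over 1 in size. Smaller changes that only lost or gained an adjusted p under 0.05, as for Snhg8 and Gas5 above, therefore count as kept. The runs with no limit on the change and relative to the median change reuse the p-values of the main fit. The number of hosts called in total RNA stayed at 1 and that in 4sU RNA at 1, except that the latter was 0 with library size only, without a filter, with 3 CPM required in all 12 libraries, and relative to the median change, and ranged from 0 to 1 when single replicates were left out. Snhg5 then stood between -0.997 and -0.84. With no limit on the change, 7, 7 and 1 hosts were called in total RNA, 4sU RNA and the change of the ratio. Of the hosts, only Snhg3 and Snhg12 changed sign, both in the change of the ratio, which had not passed the test. Snhg3 ratio change was 0.032 under DESeq2 and RLE, 0.034 relative to the median change, 0.0091 under upper-quartile scaling, and -0.20 to 0.0087 over replicates left out. Snhg12 ratio change was -0.27 to 0.014 over replicates left out. Snora73b 4sU change was 0.023 by library size, 0.012 without a filter, 0.011 relative to the median change, 0.0039 with 3 CPM in all libraries, and -0.073 to 0.10 over replicates left out. Lpp ratio in wild-type was -0.036 under DESeq2, -0.037 under RLE, -0.26 under upper-quartile scaling, -0.11 by library size, -0.21 with 3 CPM in all libraries and -0.022 relative to the median change. Maged2 ratio change was -0.048 under limma-trend and -0.12 to 0.14 over replicates left out. Over replicates left out, Tenm1 ratio change was -0.74 to 1.42, Tenm1 ratio in wild-type -0.68 to 1.48, and Atf4 4sU change -0.18 to 0.040. The cause was not tested.

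With the replicate number as a replicate block, hosts called were 1, 1, 8, 8 and 0 in the 5 contrasts, and with same-numbered libraries as a block 8, 8 and 0 for the ratios and their change. Deviations of same-numbered 4sU and total libraries of 1 genotype correlated at 0.02 to 0.10, and those of same-numbered libraries of different genotypes at -0.08 to 0.08. The numbers were not taken as pairs in the fit reported, although the RNA was split between library types. Under these blocks the ratio change of Gas5 passed the test. Over all genes, called ratio changes were 111 higher and 136 lower, and 147 and 90 under RLE scaling. Upper-quartile scaling moved the median wild-type ratio of all genes from 0.08 to -0.24. Per unshared exonic base, wild-type 4sU levels were 1475 for Snhg1, 945 for Snhg3 and 489 CPM per kb for Snhg12, which put Snhg3 above Snhg5 and Snhg12 above Snhg6. From medians of CPM plus 0.5, the ratios of hosts in wild-type lay between the 1.63rd (Snhg12) and 18.4th (Snhg11) percentile of all genes tested. In the main fit Snhg12 and Snhg11 lay at the 4.998th and 20.5th percentile of all genes tested. These percentiles therefore depend on how the ratio was taken. Snhg11, with 164 to 197 counts per wild-type 4sU library, was the least deeply counted host.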
